A study of Homo sapiens with 5 samples.

Results

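RBFOX1, RBFOX2 and RBFOX3, the teneurins TENM1, TENM2, TENM3 and TENM4, and AUTS2 are genes best known from the nervous system, and they were followed here in nuclei of lung cancer cell lines. They were found by symbol as 8 of the 36601 genes in the count matrix of the 80% portion. The group was chosen by measured values, since earlier results of these data had shown strong cluster-specific peaks in introns of TENM4 and RBFOX3 and in front of AUTS2, so the levels of those peaks and genes are a description and carry no test. The cells came from H2228, H1975, A549, H838 and HCC827, which are established human lung adenocarcinoma lines, and the sample labels name no drug treatment, genotype change or time point. After equal mixing, nuclei were captured with the 10× Multiome assay, which reads RNA and accessible chromatin (ATAC) under one barcode, and the droplets were divided into a 20% and an 80% portion. Each portion gave 1 RNA library and 1 ATAC library, so nothing was replicated and every interval below covers counting error only. No nucleus was assigned to a cell line, and values are given by RNA cluster, with the 8 genes left out of the clustering, so that 6 clusters stand beside 5 lines without a match between them.

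RBFOX proteins bind a short motif in introns and near exons and steer alternative splicing. RBFOX3, the antigen NeuN, is found mainly in neurons, whereas RBFOX2 is also made in epithelial and mesenchymal cells. Teneurins are large membrane proteins that bind latrophilins on the neighbouring cell and guide axons and synapses, and AUTS2 joins a variant Polycomb complex and has roles in brain development. All 8 genes are long. They span from 290.1 kb for RBFOX2 to 2474 kb for RBFOX1, against a median of 27.4 kb for protein-coding genes, and each is longer than at least 95.7% of protein-coding genes.

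The 80% matrix held 6557 nuclei with 95455518 RNA UMIs and 63920767 ATAC counts, and the 20% matrix held 1286 nuclei with 14346346 and 12850543. The clusters, numbered 0 to 5 by size, held 2483, 1461, 1449, 470, 366 and 328 nuclei, with median depths between 9145 UMIs in cluster 1 and 17578.5 in cluster 3. They are identified by their leading genes, MEG8 and PPP2R2B in cluster 0, IGSF11 and CLDN2 in cluster 1, AC069277.1 and CARD18 in cluster 2, AL683807.1 and MT1E in cluster 3, TAGLN and MGP in cluster 4, and AC090578.1 and AC011632.1 in cluster 5, where EGFR, chosen after its values were seen, stood at 7229 CPM (counts scaled to a total of 1e+06 per cluster). ATAC clusters, built without the peaks around the 8 genes, kept at least 95.6% of every RNA cluster together. The portions shared 159 barcodes, which is 2.42% of the 80% and 12.4% of the 20% nuclei.

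The sequences at the centre of 4 peaks are given first, because the comparisons of open chromatin turn on these peaks. They are hg38 plus-strand letters, and the coordinates are those of the printed bases. The RBFOX3 window (chr17:79473386-79473685) and the TENM4 window (chr11:78801352-78801651) lie in introns of these genes. The first AUTS2 window (chr7:69598115-69598295) is cut short at the base before the gene's first annotated start. The second (chr7:69256709-69257008) lies 341 kb upstream, inside the long non-coding RNA gene ENSG00000225718, and was added after its values were seen. Capitals mark matches, on either strand, to TGANTCA (a loose form of the AP-1 letters, with any middle base), TGTTTAC (forkhead), GGAATG (TEAD) or TGTGGT (RUNX).
RBFOX3 intron: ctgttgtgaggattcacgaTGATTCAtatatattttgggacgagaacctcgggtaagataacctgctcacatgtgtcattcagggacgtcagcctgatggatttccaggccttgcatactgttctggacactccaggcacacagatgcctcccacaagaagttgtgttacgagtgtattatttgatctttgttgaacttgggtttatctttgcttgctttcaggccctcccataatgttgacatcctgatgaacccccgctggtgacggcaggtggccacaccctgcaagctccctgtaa
TENM4 intron: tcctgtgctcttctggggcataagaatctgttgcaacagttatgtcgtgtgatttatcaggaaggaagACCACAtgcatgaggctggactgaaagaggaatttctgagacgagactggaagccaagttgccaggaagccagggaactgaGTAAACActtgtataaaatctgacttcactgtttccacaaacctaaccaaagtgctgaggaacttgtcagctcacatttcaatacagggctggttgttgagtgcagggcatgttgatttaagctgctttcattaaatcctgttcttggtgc
AUTS2 start: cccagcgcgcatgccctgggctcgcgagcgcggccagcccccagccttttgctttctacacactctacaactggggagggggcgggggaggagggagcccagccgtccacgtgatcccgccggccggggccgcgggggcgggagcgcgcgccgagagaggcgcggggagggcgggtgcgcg
AUTS2 upstream: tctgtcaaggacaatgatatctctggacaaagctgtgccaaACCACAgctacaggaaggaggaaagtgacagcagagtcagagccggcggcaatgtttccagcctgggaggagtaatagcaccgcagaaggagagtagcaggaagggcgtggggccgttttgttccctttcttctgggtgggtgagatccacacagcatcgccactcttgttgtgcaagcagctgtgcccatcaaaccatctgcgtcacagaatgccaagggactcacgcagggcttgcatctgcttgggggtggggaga

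The RBFOX3 window held 1 match to TGANTCA, with T as its middle base, which the stricter AP-1 letters TGACTCA and TGAGTCA do not allow. The TENM4 window held 1 match to TGTTTAC and 1 to TGTGGT, and the upstream AUTS2 window 1 to TGTGGT. Over the central 300 bases of 158289 peaks, TGANTCA was found in 33.8%, TGTTTAC in 5.28%, GGAATG in 21.6% and TGTGGT in 22.7%. The AUTS2 start window, 181 bases long, had no match to any of these and a GC content of 77.3%, against 48.3% in the RBFOX3 and 44.7% in the TENM4 window. The matches describe letters and not bound factors.

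Across clusters the genes fell into 3 kinds of pattern. RBFOX3, TENM4 and TENM2 were each high in a single cluster, TENM3 and AUTS2 were graded over several, and RBFOX2 was present everywhere. RBFOX1 and TENM1 were close to absent. A gene was called restricted when its summed UMIs reached 10 CPM in the highest cluster and at least 4 times the level of the next. Of the 8 genes, 6 reached 10 CPM and 3 of them were restricted, beside 5.65% of the 12591 genes that reached 10 CPM. With nuclei of the 20% portion placed on the same clusters, 6 reached 10 CPM and 3 were restricted, beside 5.59% of all genes. The median log2 ratio of the highest to the next cluster was 1.48 over the 6 genes and 0.30 over all genes tested. Because these genes were chosen with their patterns in view, the shares describe the choice and are no evidence about it.

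**Figure D1:**
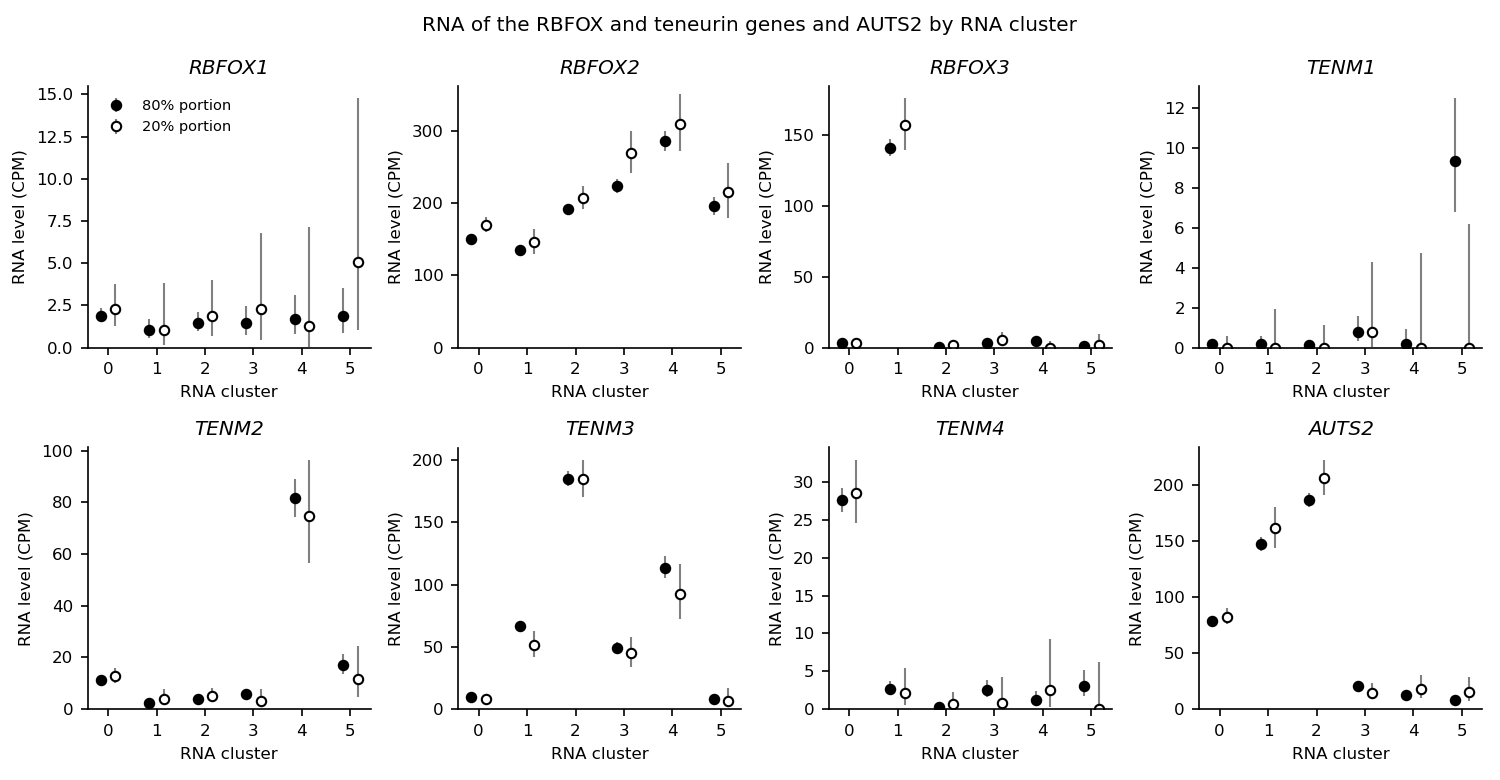
RNA level in CPM (y axis) of each gene in RNA clusters 0 to 5 (x axis), with filled points for the 80% and open points for the 20% portion and bars for exact 95% Poisson intervals. RBFOX3 stands out in cluster 1, TENM2 in cluster 4 and TENM4 in cluster 0 in both portions, while the TENM1 value of 9.34 CPM in cluster 5 has no counterpart in the 20% portion.

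RBFOX3 (ENSG00000167281, chr17:79089345-79611051, minus strand, hg38) was the most sharply divided of the 8. Its level was 141.4 CPM in cluster 1, with a 95% Poisson interval of 135.4 to 147.6, from 2093 UMIs. In the other clusters it was 3.30 CPM in cluster 0, 0.367 in cluster 2, 3.01 in cluster 3, 4.91 in cluster 4 and 1.25 in cluster 5. Cluster 1 was thus 28.8 times (exact interval 20.0 to 43.1) above cluster 4, and the remaining neighbours in the order did not differ beyond counting error. In the 20% portion cluster 1 stood at 157.2 CPM and the next at 5.40. At least 1 RBFOX3 UMI was seen in 62.6% of cluster 1 nuclei (median depth 9145 UMIs) and in 0.483% of cluster 2 nuclei (median 12670). After thinning every nucleus to 5000 UMIs, which left out up to 38 nuclei of a cluster, these shares were 46.7% and 0.0699%, and 0.940% to 1.09% in clusters 0, 3, 4 and 5.

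TENM4 (ENSG00000149256, chr11:78652829-79441030, minus strand) marked cluster 0, at a lower level. It reached 27.6 CPM there (26.1 to 29.3, from 1157 UMIs), compared with 2.70 in cluster 1, 0.262 in cluster 2, 2.56 in cluster 3, 1.19 in cluster 4 and 3.11 in cluster 5. The ratio of cluster 0 to cluster 5 was 8.87 (5.36 to 15.9). The 20% portion gave 28.5 CPM in cluster 0 and at most 2.57 elsewhere.

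TENM2 (ENSG00000145934, chr5:166979029-168264157, plus strand) was highest in cluster 4, at 81.5 CPM (74.4 to 89.1, from 481 UMIs). It was 17.0 CPM in cluster 5, 11.2 in cluster 0, 5.90 in cluster 3, 3.98 in cluster 2 and 2.50 in cluster 1, and each of these steps exceeded counting error. The ratio to cluster 5 was 4.79 (3.78 to 6.13), so the lower bound fell under the threshold of 4. When the clustering was asked for 5 clusters, clusters 3 and 4 came together in 1 group of 833 nuclei, where TENM2 stood at 36.1 CPM against 16.9 in the next, a ratio of 2.14 (1.70 to 2.74), and it was no longer restricted. In the 20% portion TENM2 stood at 74.6 CPM in cluster 4 and 12.7 in cluster 0. The later steps there, to 11.8 in cluster 5, 4.93 in cluster 2, 3.72 in cluster 1 and 3.09 in cluster 3, lay within counting error.

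TENM3 (ENSG00000218336, chr4:182143987-182803024, plus strand) formed a gradient. Levels were 185.1 CPM in cluster 2, 113.7 in cluster 4, 66.5 in cluster 1 and 49.3 in cluster 3, against 9.70 in cluster 0 and 7.89 in cluster 5. With all nuclei, clusters 0 and 5 did not differ beyond counting error, and the other steps did, with cluster 2 1.63 times (1.499 to 1.77) above cluster 4. Nuclei called doublets, described below, held 265 of the 406 TENM3 UMIs of cluster 0 and 34 of the 38 of cluster 5. Without them these clusters stood at 3.88 and 0.961 CPM, and the step between them was not tested. The order of the first 4 clusters was the same in the 20% portion, at 184.9, 92.6, 51.5 and 44.8 CPM.

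AUTS2 (ENSG00000158321, chr7:69598296-70793506, plus strand) was high in the same cluster but fell in another order. It was 186.7 CPM in cluster 2, 147.6 in cluster 1 and 78.3 in cluster 0, and then 20.4 in cluster 3, 12.4 in cluster 4 and 8.31 in cluster 5. Every step but the last exceeded counting error. Cluster 2 was 1.26 times (1.20 to 1.33) above cluster 1 and 22.5 times (16.5 to 31.5) above cluster 5. In the 20% portion clusters 2, 1 and 0 kept their order, at 206.7, 161.5 and 82.7 CPM. Clusters 3, 4 and 5 did not, at 14.7, 18.0 and 15.2 CPM, and the steps among them lay within counting error. TENM3 and AUTS2 were thus both highest in cluster 2, whereas cluster 4, second for TENM3, was near the bottom for AUTS2.

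RBFOX2 (ENSG00000100320, chr22:35738736-36028824, minus strand), which is also made in epithelial and mesenchymal cells, was detected in 83.6% of all nuclei. Its level lay between 135.7 CPM in cluster 1 and 285.9 in cluster 4, with 150.1 in cluster 0, 191.9 in cluster 2, 224.0 in cluster 3 and 196.4 in cluster 5, and clusters 2 and 5 did not differ beyond counting error. The highest was 1.28 times (1.20 to 1.36) the next and 2.11 times (1.97 to 2.25) the lowest, and in the 20% portion it was 1.15 times (0.969 to 1.36) the next, within counting error. The share of ATAC counts on chromosome 22, which carries RBFOX2, was also highest in cluster 4 (2.71%) and next in cluster 3 (2.14%), and ranged from 1.33% to 1.93% in the others. The share of RNA UMIs on this chromosome was likewise highest in cluster 4 (1.84%) and next in cluster 3 (1.655%), and lowest in cluster 0 (0.969%). The part of these shares in the RBFOX2 values was not tested.

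RBFOX1 (ENSG00000078328, chr16:5239802-7713340, plus strand) gave 154 UMIs in all, between 1.01 and 1.89 CPM per cluster, and no neighbours in that order differed beyond counting error, although the highest was 1.86 times (1.06 to 3.48) the lowest. After thinning, its UMIs were found in 0.428% to 1.09% of the nuclei of each cluster. Of the 75 RBFOX1 UMIs outside cluster 0, 12% were in nuclei called doublets.

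TENM1 (ENSG00000009694, chrX:124375903-125204312, minus strand) rested mostly on a single nucleus. It was at 9.34 CPM in cluster 5 and at most 0.779 CPM elsewhere, but 30 of the 45 UMIs in cluster 5 came from 1 nucleus, which had 17430 UMIs in total and was not called a doublet. The other 15 UMIs were spread over 9 nuclei with at most 3 each, and without the outstanding nucleus the level was 3.13 CPM (1.75 to 5.16). The 20% portion held 1 TENM1 UMI, in cluster 3. TENM1 overlaps STAG2 on the opposite strand, a gene with 18253 UMIs, and the sources used here do not say whether counting used strand. RBFOX3 overlaps a gene on its own strand with 99 UMIs, and no other member had more than 1 UMI of a same-strand neighbour inside its bounds.

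Per unit of gene length the order between genes changed. In its highest cluster RBFOX2 held 98.5 CPM per 100 kb of gene, followed by TENM3 with 28.1, RBFOX3 with 27.1 and AUTS2 with 15.6. TENM2 stood at 6.34, TENM4 at 3.51, TENM1 at 1.13 and RBFOX1 at 0.0763 CPM per 100 kb. On this scale TENM4, although restricted, was the weakest of the 6 genes that reached 10 CPM.

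Most RBFOX3 UMIs outside its leading cluster, and in some clusters most of those of TENM3, TENM4 and AUTS2, lay in nuclei that Scrublet called doublets. These were 385 of the 6557 nuclei, and the calls used all genes, the 8 included. Of the 207 RBFOX3 UMIs outside cluster 1, 79.2% were in called doublets, and for cluster 0 it was 118 of 138. All 23 TENM4 UMIs of cluster 3 and 34 of the 38 TENM3 UMIs of cluster 5 were in called doublets, as were 74.9% of the AUTS2 UMIs of cluster 3. Called doublets held 20.8% of all UMIs in cluster 3 and 13.6% in cluster 5. Without them RBFOX3 stood at 150.9 CPM in cluster 1 and 0.987 in the next, a ratio of 153 (65.4 to 472), and TENM4 at 29.7 in cluster 0 and 2.86 in cluster 1, a ratio of 10.4 (7.52 to 14.8). TENM2 behaved differently, since 12.4% of its UMIs outside cluster 4 were in called doublets, and its level in cluster 5 was 17.0 CPM with and 17.3 without them. TENM1 also met the rule without them, at 10.3 CPM in cluster 5 against 0.984 in the next, with the nucleus of 30 UMIs still included. AUTS2 was at 6.46, 4.74 and 2.64 CPM in clusters 3, 4 and 5 without them, and at 186.8 CPM in cluster 2. Called doublets held 137 of the 183 AUTS2 UMIs of cluster 3 and 49 of the 73 of cluster 4. The AUTS2 step from cluster 3 to cluster 4 was not tested without them.

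**Figure D2:**
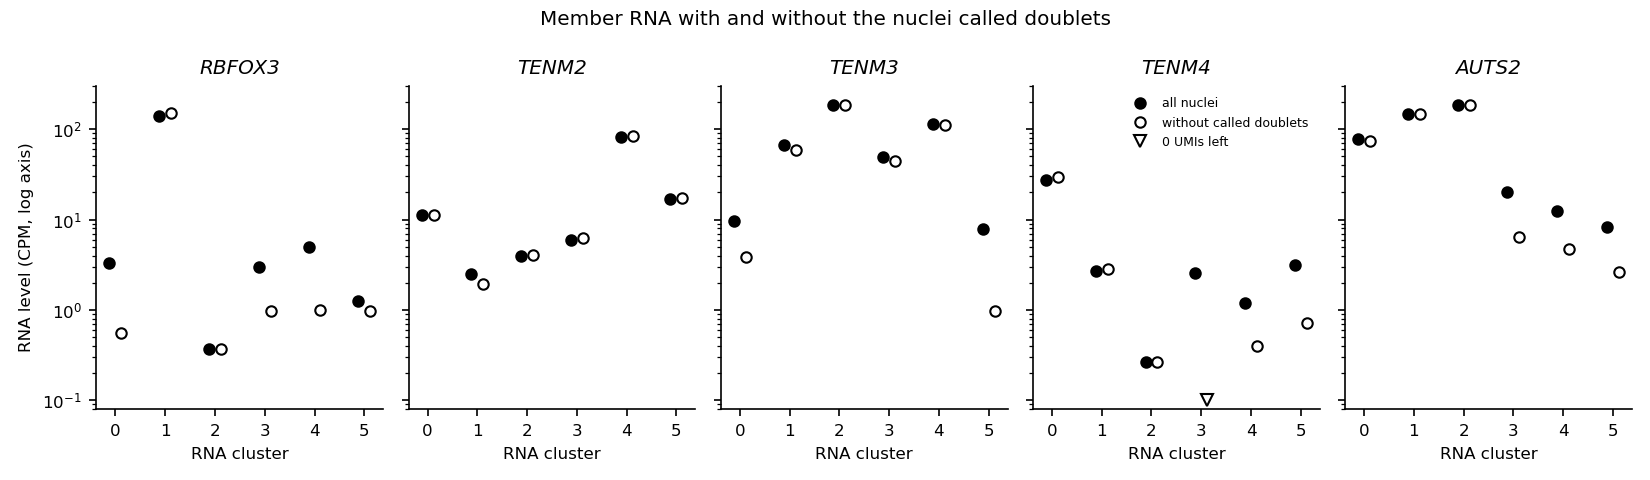
RNA level in CPM (log y axis) by RNA cluster (x axis) in the 80% portion, with filled points for all nuclei and open points after removal of nuclei called doublets. Many low values of RBFOX3, TENM4 and AUTS2 outside their leading clusters drop, TENM4 to 0 UMIs in cluster 3 (triangle at the foot of the axis). Those of TENM3 in clusters 0 and 5 drop too, while those of TENM2 change little.

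UMIs were also unevenly spread among nuclei of the same cluster. Intervals on RNA levels and ratios take each UMI as independent, so they are too narrow for genes spread unevenly. AUTS2 was seen in 48.2% of cluster 0 nuclei, whereas an even level over these nuclei at their depths would give 70.1%. For TENM2 in cluster 4 the shares were 44.8% and 69.6%, and for TENM3 in cluster 1 they were 30.5% and 47.2%. For RBFOX2 in cluster 4 they lay closer, at 94.5% and 97.2%. In the clusters of lowest level, AUTS2 was seen in 7.93% (cluster 5), TENM2 in 1.64% (cluster 1) and TENM3 in 4.27% (cluster 5) of nuclei, at median depths of 11962.5, 9145 and 11962.5 UMIs. When the clustering was asked for 7 clusters, cluster 0 divided into groups of 1393 and 1089 nuclei. AUTS2 stood at 54.5 CPM in the first and 119.4 in the second, and TENM2 at 7.61 and 17.5. TENM4 was present in both, at 31.0 and 22.0 CPM, so that it was no longer restricted, with a ratio of 1.41 (1.24 to 1.60) between these groups. Under 7 clusters 2 of the 6 genes were restricted, beside 4.38% of all genes tested. RBFOX3 was at 4.504 and 1.23 CPM, and 12.3% and 2.48% of the nuclei of these groups were called doublets.

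Open chromatin was read over the gene bodies with 100 kb on either side, where 323 peaks lay. Counts at a peak were expressed as CPM of all ATAC counts of a cluster, and 66 peaks reached 10 CPM in a cluster. Of these, 14 (21.2%) were restricted by the same rule, beside 7.68% of the 48121 peaks tested in the whole matrix. Away from gene starts it was 13 of 46 (28.3%), beside 10.9% of all such peaks. Some of these peaks are those that led to the choice of genes, so the counts are read no further. The restricted peaks were concentrated at RBFOX3, with 6 of 16, all highest in cluster 1, and at TENM4, with 4 of 7, of which 3 were highest in cluster 0 and 1 in cluster 1. RBFOX2, TENM2, TENM3 and AUTS2 had 1 each, and RBFOX1 and TENM1 had 0. Most ATAC values (90.1%) were even numbers, so counts are not independent fragments, and shares of nuclei with a count are given beside the levels of some peaks. Intervals on ratios of summed ATAC counts take each count as independent, so they are too narrow.

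The RBFOX3 peak whose central bases are printed above (chr17:79473074-79473999) lies 138 kb into the gene. It reached 112.0 CPM in cluster 1 and 8.20 in cluster 0, 5.10 in cluster 3, 4.06 in cluster 4, 2.58 in cluster 5 and 1.499 in cluster 2. A count was seen in 33.9% (31.5 to 36.4) of cluster 1 nuclei and in 0.483% to 4.31% of those of the other clusters. In the 20% portion it was 120.5 CPM in cluster 1 and at most 6.04 elsewhere. A second intronic peak, 177 kb into the gene, reached 31.5 CPM in cluster 1 and at most 2.03 in any other. The peak at the first RBFOX3 start (chr17:79610578-79611394) was far weaker, with 11.2 CPM in cluster 1 and at most 1.23 elsewhere. Not all RBFOX3 starts followed it, since the peak at another start (chr17:79114488-79115396) was highest in cluster 0, at 8.88 CPM, with 2.38 in cluster 1. The 6 peaks at RBFOX3 starts summed to 31.5 CPM in cluster 1 and 16.3 in cluster 0. The 20% portion, with its own peak calls, had only 2 start peaks, which summed to 11.3 and 12.1, so these sums cover unlike peaks. Its peak overlapping chr17:79609759-79610449 stood at 9.23 CPM in cluster 1 and 1.91 in cluster 0. Its peak overlapping chr17:79114488-79115396 stood at 2.05 and 10.2 CPM. Chromosome 17 held 8.31% of the ATAC counts of cluster 1 and 5.36% to 6.37% of the others. Scaled to that chromosome, the log2 ratio of the summed neighbourhood peaks of cluster 1 over cluster 0 was 0.46, against 1.09 with all counts.

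The leading TENM4 peak (chr11:78801043-78801961), its centre 3.91 kb from a later annotated TENM4 start, lies 640 kb into the gene, towards its end. Its level was 41.7 CPM in cluster 0, 3.504 in cluster 3, 2.73 in cluster 1, 2.03 in cluster 4, 1.03 in cluster 5 and 0.964 in cluster 2. A count was seen in 21.1% (19.5 to 22.8) of cluster 0 nuclei and in at most 2.13% of the others. Both groups into which cluster 0 divided carried it alike, at 41.4 and 42.3 CPM. Within cluster 0, TENM4 RNA was 36.8 CPM (33.1 to 40.9) in the 524 nuclei with a count at this peak and 25.0 (23.3 to 26.7) in the 1959 without, whose median ATAC depths were 12298 and 11287. The groups into which cluster 0 divided had 31.0 and 22.0 CPM of TENM4 RNA, and their part in this comparison was not tested. The same comparison for RBFOX3 in cluster 1 gave 150.3 (139.8 to 161.3) and 136.7 CPM (129.4 to 144.3), with overlapping intervals. TENM3 in cluster 2, by its own peak of largest excess, gave 157.45 (130.85 to 187.86) with a count and 186.29 CPM (180.09 to 192.65) without. TENM2 in cluster 4 gave 70.9 CPM (45.4 to 105.5) in 17 nuclei with a count and 82.1 (74.8 to 90.0) in the others. AUTS2 in cluster 2 gave 188.9 and 186.5 CPM. At RBFOX1, RBFOX2 and TENM1 at most 27 nuclei had a count, and the 9 of RBFOX1 held 0 UMIs of it. For every gene but TENM4 the intervals with and without a count overlapped. TENM4 was seen in 26.4% of cluster 0 nuclei, whereas an even level would give 36.2%. Its intervals take each UMI as independent and are thus too narrow, so the TENM4 difference is read no further. The peaks used for RBFOX1, RBFOX2, TENM2 and AUTS2 were highest in a cluster other than the one compared. Not every TENM4 peak followed the RNA. An intronic peak 725 kb into the gene stood at 33.1 CPM in cluster 0 and 33.6 in cluster 5, where TENM4 RNA was 3.11 CPM, and a peak 196 kb in was highest in cluster 1, at 18.9 CPM. The peak at the first start reached 8.92 CPM in cluster 0 and 6.35 in cluster 1. A peak at a later start (chr11:78805924-78806810) was at 6.00 CPM in cluster 0 and at most 1.81 elsewhere. The peaks at all TENM4 starts summed to 25.5 CPM in cluster 0 and 12.3 in cluster 1.

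**Figure D3:**
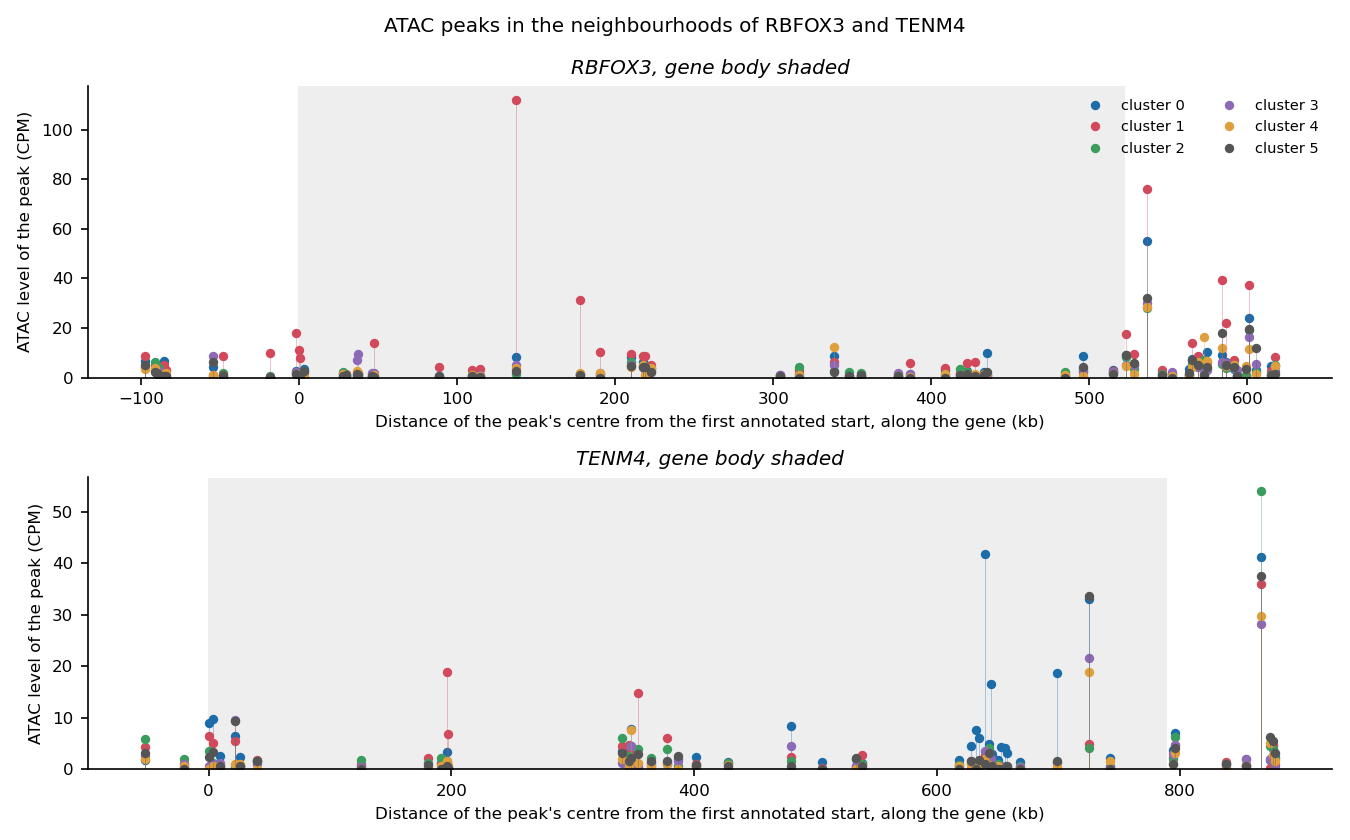
ATAC level in CPM (y axis) of each peak around RBFOX3 and TENM4 against the distance of its centre from the gene's first start in kb (x axis), with 1 colour per RNA cluster and the gene body shaded. Tall points past the bodies lie at starts of neighbouring genes. The peak at 138 kb in RBFOX3 reaches 112.0 in cluster 1 and the peak at 640 kb in TENM4 reaches 41.7 in cluster 0.

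TENM3 had peaks at separate starts that were open in different clusters. The peak at the first start (chr4:182143972-182144931), which also covers the start of TENM3-AS1, was at 10.6 CPM in cluster 2, 10.4 in cluster 1 and 5.21 in cluster 0, and at 1.02 to 1.59 in clusters 3, 4 and 5. The peak at a start 305 kb downstream (chr4:182448565-182449477) was at 19.0 CPM in cluster 4, 16.8 in cluster 0, 14.2 in cluster 1, 12.3 in cluster 3 and 6.98 in cluster 5. In cluster 2 it was at 0.536 CPM, from 5 counts in 2 of the 1449 nuclei (0.138%, interval 0.0167 to 0.498). The cluster with the most TENM3 RNA was thus the one with the fewest counts at the downstream start, and cluster 4, second in RNA, had the downstream start open and a count at the first start in 0.546% of nuclei. In the 20% portion the downstream peak was at 0.930 CPM in cluster 2 and 5.21 to 21.0 elsewhere. Cluster 0 had counts at both starts and 9.70 CPM of RNA, or 3.88 CPM without called doublets. An intronic peak 163 kb into the gene was restricted to cluster 2, at 12.7 CPM against at most 1.52.

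Around AUTS2, peaks at the start and upstream of it gave different orders. The peak at the first start (chr7:69597817-69598713) was highest in cluster 1, at 39.0 CPM, with 16.3 in cluster 2, 15.2 in cluster 0, 12.7 in cluster 4, 7.65 in cluster 3 and 5.94 in cluster 5. The summed peaks at all annotated AUTS2 starts were likewise 76.0 CPM in cluster 1 and 37.2 in cluster 2, whereas AUTS2 RNA was higher in cluster 2. The peak 341 kb upstream (chr7:69256407-69257312), beyond the 100 kb limit, stood at 158.7 CPM in cluster 2 and at most 6.87 in any other. A count was seen there in 39.2% (36.7 to 41.8) of cluster 2 nuclei and in 1.22% to 2.19% of the others. A pair of further peaks, 186 and 203 kb upstream, reached 78.8 and 49.7 CPM in cluster 2 and at most 15.95 and 4.05 in any other. All 3 lie in ENSG00000225718, and no test linked them to AUTS2. In cluster 0, where AUTS2 RNA was 78.3 CPM, they were at 3.64, 1.75 and 2.09 CPM.

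**Figure D4:**
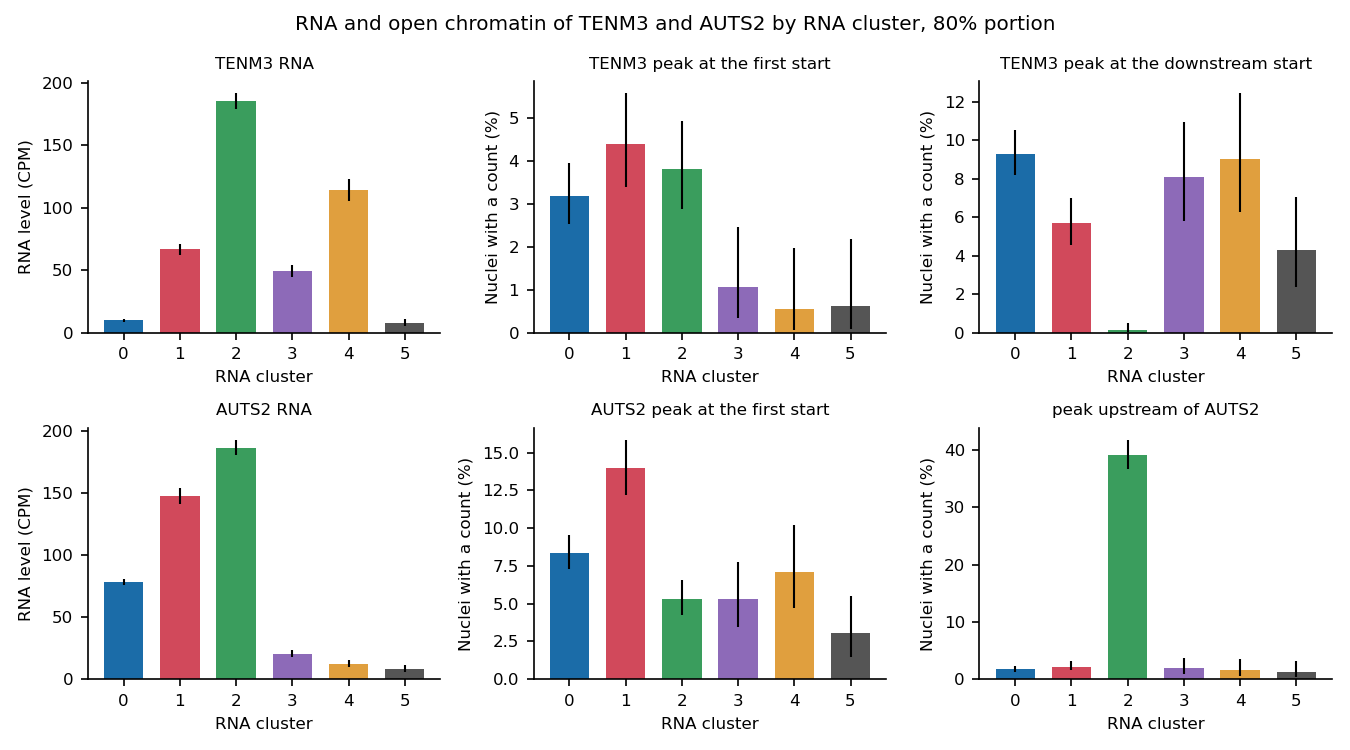
RNA level in CPM (left column) and share of nuclei with a count at a named peak in percent (middle and right columns) by RNA cluster for TENM3 (top) and AUTS2 (bottom) in the 80% portion, with bars for the value and lines for exact 95% intervals. The downstream TENM3 start has a count in 0.138% of cluster 2 nuclei, and the peak upstream of AUTS2 has one in 39.2% of them.

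TENM2, although restricted in RNA, had little signal at its own starts, whose summed peaks were at most 2.47 CPM in any cluster. Its peak of largest excess over the next cluster (chr5:168270347-168271116), near the start of TENM2-AS1 and 6190 bp past the end of TENM2, was highest in cluster 2 at 21.0 CPM, with 8.63 in cluster 4, where the RNA was highest. Over the whole neighbourhood TENM2 peaks summed to 448.2 CPM in cluster 4 and 425.4 in cluster 5, a ratio of 1.05 (0.984 to 1.13). At RBFOX2 the peak at the first start lay between 40.1 CPM in cluster 0 and 64.0 in cluster 4, and cluster 4 was also highest in RNA. These clusters also had the lowest and highest share of ATAC counts on chromosome 22 (1.33% and 2.71%), whose part in the peak's levels was not tested. The RBFOX2 peak of largest excess, 20066 bp beyond the gene, was at 10.8 CPM in cluster 2 and 2.03 in the next. At RBFOX1 no peak reached 10 CPM, the start peak was between 2.03 and 6.87 CPM, and the peak of largest excess was at 6.85 CPM in cluster 3 and 1.02 in the next. The peak nearest the TENM1 start was at 8.73 CPM in cluster 1 and at most 1.03 elsewhere, although TENM1 RNA in cluster 1 was 0.203 CPM. The peak of largest excess around TENM1, 84669 bp beyond the gene, was highest in cluster 5 at 14.2 CPM.

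The neighbourhood sums as a whole pointed to the RNA-leading cluster for RBFOX3 (608.0 CPM in cluster 1, 286.1 in cluster 0) and for TENM4 (288.5 in cluster 0, 162.2 in cluster 1). For RBFOX2 and TENM2 the same cluster led by a margin within counting error, and the direction turned when counts were scaled to the chromosome, with log2 ratios of -0.23 and -0.12. Within the TENM2 gene body alone, cluster 4 led at 250.5 CPM against 166.2 in cluster 2, a ratio of 1.51 (1.39 to 1.63). In the 20% portion, with 22 peaks in place of 55, cluster 3 came next. The ratio of cluster 4 over cluster 3 there was 1.31 (1.04 to 1.64). The AUTS2 sum was highest in cluster 1, at 163.3 CPM, and that of TENM3 in cluster 4, at 102.5 CPM and within counting error of cluster 3, whereas both had their RNA maximum in cluster 2. Within the TENM3 gene body alone, the sum was highest in cluster 2, at 75.9 CPM and within counting error of cluster 4 (73.8 CPM). In the 20% portion it was highest in cluster 2 too, 1.35 times (1.05 to 1.74) the next, cluster 1. Because the intervals of these sums are too narrow, the small leads in the 20% portion are not read as beyond counting error. Of the 14 restricted peaks, 6 held TGANTCA, 4 held TGTGGT, 2 held TGTTTAC and 2 held GGAATG, beside 108, 63, 14 and 73 of all 323 neighbourhood peaks.

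Neuron markers were in part present and in part at or near 0. Beside the counts of restricted markers given here stands the share of 5.65% of the 12591 genes tested. Of 18 neuron markers, 6 reached 10 CPM in a cluster and 0 were restricted, and the summed list ran from 360.9 CPM in cluster 2 to 889.9 in cluster 3, where TUBB3, a tubulin, stood at 500.3 CPM and SYT1, a vesicle calcium sensor, at 340.4 CPM. MAP2, a microtubule-associated protein of dendrites, reached 137.8 CPM in cluster 0, and SNAP25, a synaptic vesicle fusion protein, 129.8 in cluster 2 and 129.4 in the next. MAPT reached 39.7 CPM, INA 10.3 and GAD1 9.80. SLC17A7 and SLC17A6, the glutamate transporters of excitatory neurons, GAD2, STMN2, NEFM and ELAVL4 were at most 0.208 CPM in any cluster. The highest levels of the remaining markers, SYP, DLG4, NEFL, GRIN1 and CAMK2A, lay between 1.19 and 5.54 CPM. Of 12 neuroendocrine markers 2 of 4 tested were restricted, namely SCG2 in cluster 4 (12.7 CPM) and CALCA in cluster 2 (18.4 CPM), and INSM1 and GRP were at 0. The list summed to 10.7 CPM in cluster 0 and 50.8 in cluster 1. The glial list of 8 summed to between 8.39 and 111.9 CPM, with 1 gene over 10 CPM, MBP, which was not restricted, and OLIG2 at 0. All 10 epithelial markers reached 10 CPM and 0 were restricted, with KRT18 at 5826 CPM in cluster 1 and a summed level of 1716 to 10813 CPM. The list was not even over clusters. EPCAM was at 763.0 CPM in cluster 5 and 682.1 in cluster 3, but at 42.4 in cluster 1 and 23.2 in cluster 2. CDH1, CLDN4 and CLDN7 were also highest in cluster 5 and next in cluster 3, each at most 5.56 CPM in cluster 2. ELF3 ran from 4.14 CPM in cluster 2 to 287.6 in cluster 1. Of the lung epithelial list 1 of 4 tested was restricted (NAPSA in cluster 5, 70.4 CPM), with a sum of 8.07 to 171.5 CPM and SCGB3A2 at 0. Of the mesenchymal list 3 of 9 were restricted (CDH2 in cluster 1, COL1A2 and TAGLN in cluster 4), with a sum of 968.6 to 6118 CPM. How far these marker levels bear on the 8 genes was not tested. The clusters are those of cancer lines, and the 8 genes are called by their names and not as neuronal markers.

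Partners of the 8 proteins were followed through lists of genes. The lists were chosen with earlier results of these data known, so their shares here and below are descriptions and are read no further. Among 21 teneurin partners and other trans-synaptic adhesion genes, 10 reached 10 CPM and 4 (40%) were restricted, beside 5.65% of all genes tested. ADGRL3, a latrophilin and thus a teneurin receptor, stood at 86.0 CPM in cluster 0 and 5.46 in the next, and NLGN1, a neuroligin that binds neurexins, at 94.7 and 2.49. Both were highest in the cluster of TENM4. The other latrophilins were highest elsewhere, ADGRL2 at 60.2 CPM in cluster 1 against 5.92 in cluster 0, and ADGRL1 at 24.7 CPM in cluster 2. UNC5D, a netrin receptor (16.1 against 1.24 CPM), and the neurexin NRXN3 (16.1 against 3.56) were restricted to cluster 1, that of RBFOX3. They reached 10 CPM, and so were counted among the genes tested, through that cluster only. FLRT2, a further latrophilin ligand and the most abundant of the list, was at 165.4 CPM in cluster 4 and 155.9 in the next. The median log2 ratio of the list was 1.28, against 0.30 over all genes.

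The splicing and Polycomb lists held few restricted genes. Of 9 RBFOX partners in the large assembly of splicing regulators, 8 reached 10 CPM and 0 were restricted, with a median log2 ratio of 0.10 against 0.30 over all genes, and DDX5, an RNA helicase, was the most abundant at 762.0 CPM in cluster 4. Of 27 other tissue-type splicing regulators, 16 were tested and 1 (6.25%, beside 5.65% of all genes) was restricted, CELF2 in cluster 5 at 25.1 CPM against 2.27. The median log2 ratio of this list was 0.52, above that of all genes, and unrestricted members also varied widely, such as ESRP1, an epithelial splicing regulator, from 0.508 to 101.1 CPM, KHDRBS3 from 2.04 to 59.8 and NOVA1, a neuronal one, from 10.00 to 110.8. MBNL1, the most abundant of them, was at 724.0 CPM in cluster 0. PTBP2, the neural paralogue of PTBP1, was at 320.0 CPM in cluster 2 and 146.0 in the next, a difference under the 4-fold rule. Of 13 AUTS2 partners in a variant Polycomb complex, all were tested and 0 were restricted, and CSNK2A1, a casein kinase subunit, was the most abundant at 200.6 CPM in cluster 2 and 185.9 in the next.

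Because the 8 genes are long, other very long genes expressed in neurons were set beside them. Of 35 such genes, 19 reached 10 CPM and 3 (15.8%) were restricted, beside 5.65% of all genes tested, with a median log2 ratio of 0.89 against 0.30. CDH13, an atypical cadherin (68.8 against 4.90 CPM), CSMD1 (52.2 against 4.05) and CDH18 (49.5 against 9.83) were all restricted to cluster 2, which led TENM3 and AUTS2. GPC6, a glypican and the most abundant of the list, was at 1148 CPM in cluster 4 and 789.4 in the next.

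The genes most like each member over the 6 clusters of the 80% portion were found by Pearson's r of log2(CPM + 1), and share libraries and depth with it. For TENM4 they were MEG8 (r = 0.998), SYNJ2 (0.997) and MEG3 (0.995), and for RBFOX3 they were AL445584.2 (0.998), SGCD (0.997) and NRXN3 (0.997). KIAA0319L, GGNBP2 and SYNM came closest to AUTS2, with r between 0.993 and 0.998. PTX3 was the nearest to TENM2 (0.993) and DCAF8 to TENM3 (0.986), followed by GEMIN5 and RPS18 and by AC108488.3 and LINC00910. A high r did not need a difference of like size. Against the next cluster, PTX3 stood at 15.4 and 3.74 CPM, but GEMIN5 at 51.3 and 41.5 and RPS18 at 3351 and 2764. DCAF8 was at 79.05 and 75.4 CPM, and KIAA0319L at 60.97 and 59.04. RBFOX2 was followed most closely by AC011451.3 (0.996), NCAPH2 and VASN. For RBFOX3, 13 genes had an r of at least 0.99, and for TENM3 it was 0.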

How the data were processed

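The authors deposited whole-number counts without normalization, RNA UMIs per gene and ATAC counts per peak, made for each portion with Cell Ranger ARC 2.0.0 on GRCh38 per the file headers and labels, for barcodes called as cells and peaks called per portion. The annotation and strand setting behind the counts are not given in the sources used here. The 8 genes, the lists and markers were chosen with earlier results of these data known.

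In Seurat 5.3.0 (R 4.3.3), UMIs were log-normalized, the 2000 most variable genes without the 8 were scaled (limit 10) and reduced to 30 principal components, and a graph of 20 neighbours was clustered by Louvain (seed 0). The lowest resolution from 0.02 to 1 giving at least 6 clusters of 1% or more was used, since earlier results of these data gave 6. A coarser grid first gave 7 clusters, and the step of 0.01, under which 6 came at a resolution of 0.08, was chosen after that was seen; the 7 are given beside the results. No nuclei were removed for the main values. Scrublet (scanpy 1.11.5, expected rate 0.06) gave the doublet calls. Nuclei of the 20% portion were placed in the cluster whose mean profile they correlated with most, which returned 98.0% of the 80% nuclei to their own.

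Counts summed per cluster were scaled to CPM, with exact Poisson intervals, and ratios carry exact conditional binomial intervals (scipy 1.17.1). A value of 0 allows up to 3 counts. No test was possible with 1 library per portion and assay. Peaks were placed with GENCODE v44, within 1000 bp counting as at a start. ATAC clusters used components 2 to 30 of a TF-IDF decomposition. Sequences came from hg38 with samtools 1.23.1. The restricted call, the ratio interval and the placing of nuclei were tested on simulated counts, drawn without doublets or uneven spread within clusters. The clustering, doublet calls, thinning and placing of peaks were not simulated.

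Named were the 8 genes, 2 leading genes per cluster (at least 100 CPM), up to 4 restricted genes and the most abundant one per list, 3 genes of most similar pattern per member, each member's peak of largest excess and its start peaks. Other named genes and peaks, and EGFR, were chosen after their values were seen. XIST and Y-linked genes were left out of the leading and similar genes. Alternatives covered the clustering, doublets, barcodes, scaling, thresholds and neighbourhood width. The files with both portions together and of the long-read library were not used here, and the planned stretch of RBFOX protein is not printed.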

Additional observations from a re-analysis of the deposited data

How the results depend on the processing

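With 1 library per portion and assay, no result has a replicate error, and depth limits TENM1, RBFOX1 and most peaks, of which 66 of 323 reached 10 CPM. No paired analysis was possible because each portion gave 1 library per assay and no result comes from a test. Clusters were not matched to cell lines. The counts of 3 restricted genes, 8 of 66 list genes and 14 of 66 neighbourhood peaks stayed within 1.5 times in 46 of 53 recalculations, but single calls changed. With at least 5 clusters they were 2, 8 and 16, where TENM2 lost its call, and with 7 clusters, added after seeing the data, 2, 7 and 11, where TENM4 did. With doublets removed they were 4, 10 and 21 of 76, with TENM1 gained. At 8-fold 2 of the 6 genes tested were restricted, and at 1 CPM 4 of 8. The 8 genes kept in the clustering, another seed, ATAC clusters and the depth filter gave 3, 8 and 14, and the 20% portion 3, 8 and 12. At a 2-fold threshold there were 21 of 66 list genes and 25 of 66 peaks, and at 8-fold 8 of 66 peaks. With a minimum of 1 CPM there were 14 of 91 list genes and 43 of 321 peaks, and with 20 CPM 3 of 24 peaks. With 500 kb on either side there were 31 of 230 peaks. The shares of 5.65% of all genes and 7.68% of all peaks hold for the main rule and clusters only. Shares over all features under these changed thresholds are not given here, so the counts are read no further. Removing doublets raised the log2 ratio of RBFOX3 in cluster 1 over cluster 4 to 7.26 and that of TENM4 in cluster 0 over cluster 5 to 5.37. Of 86 ratios of member RNA under an alternative, 75 stayed inside the counting interval, and 7 changed sign, all of RBFOX1. Of 109 ratios of summed peaks, 71 stayed inside it and 12 changed sign, 4 of TENM3, 3 of TENM2, 2 each of RBFOX2 and TENM1 and 1 of AUTS2, whose log2 ratio of cluster 1 over cluster 2 was -1.49 with 500 kb on either side. Neither total holds ratios under 7 clusters, or those that involve cluster 4 under 5 clusters, where clusters 3 and 4 came together. The RNA total also leaves out ratios with a cluster of 0 UMIs in the 20% portion. Under 5 clusters TENM2 RNA was 2.14 times the next group, below its main interval of 3.78 to 6.13. The removal of barcodes shared by the portions and of the nucleus with most TENM1 UMIs were also tried, the latter, and the former in the 20% portion, added after seeing the data.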
